A study of Mus musculus with 7 samples.

Results

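Potassium channel genes were followed in supporting cells of the neonatal mouse cochlea after inhibition of enzymes that modify histones. The set comprised the protein-coding genes whose symbol begins with Kcn. Of 94 such genes, 62 had a summed expected count of at least 20 over the 7 libraries and are described as members, among 48709 genes in the deposited tables. The other 32 lay below that sum, and 6 of them (Kcng4, Kcnk15, Kcnk16, Kcnk7, Kcns2 and Kcnv2) were listed at 0 in each of the 7 libraries. Just inside the limit stood Kcnip1 with 20, Kcnh1 with 22 and Kcne1 with 23.0 counts, and just outside it stood Kcnj6 with 19, Kcnk4 with 18, and Kcna4 and Kcnq5 with 17 counts each.

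The cochleae came from mice at postnatal day 1 and were kept in culture for 48 h. TSA (trichostatin A, an inhibitor of histone deacetylases) was given at 200 nM (2 libraries), GSK-343 (an inhibitor of the Polycomb methyltransferase EZH2) at 10 µM (3 libraries), and DMSO as the solvent control (2 libraries). All 3 groups shared the explant culture with EGF and FGF in the medium, the enzymatic dissociation, and the sorting of GFP-positive cells. The labels do not name the strain or the reporter that drives GFP, nor say whether replicates were separate cultures or litters, so p-values here reflect no more than the spread among libraries.

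Potassium channels set the resting potential and repolarise excitable cells. In the cochlea they also carry the potassium that hair cells take up from endolymph: supporting cells buffer and recycle it through inward rectifiers and gap junctions, and the stria vascularis secretes it back. The family is built of pore subunits (voltage-gated, inwardly rectifying, leak, and calcium- or sodium-activated), of silent modifier subunits that form channels only together with another pore subunit, and of accessory subunits that have no pore.

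Total expected counts were 2724381 and 2963228 in the TSA libraries, 3398893 to 4248336 in those of GSK-343, and 5974230 and 5124247 in those of DMSO. The median excess of a gene's length over its effective length was 208.2 to 212.7 bases in the treated libraries, against 49 bases in both DMSO libraries, so in any comparison with DMSO the compound and the way the library was sequenced cannot be told apart. The share of counts on mitochondrial rRNA was 10.4% and 18.1% under TSA, 3.46% to 8.60% under GSK-343, and 23.6% and 20.8% under DMSO. All 16 supporting cell markers of the list used were detected in every library, with a summed TPM (a relative transcript abundance, divided by length) of 16600 and 12500 under TSA, 28600 to 39400 under GSK-343, and 9400 and 6770 under DMSO. S100a1 alone had 6685.72 and 5627.51 TPM under TSA, 15057.36, 26992.18 and 27764.7 TPM under GSK-343, and 1203.83 and 767.38 TPM under DMSO. The markers did not move together. By TPM, Sox10, Jag1, Prox1 and Cdkn1b were lower in every treated library than in both DMSO libraries. Also by TPM, S100a1, Tectb, Hes5, Hey2 and Otog were higher in every treated library, and the remaining markers overlapped with DMSO. The edgeR test on counts described below differed. Against DMSO, TSA gave lower calls for Otog (log2 -0.92), Sox2, Sox9, Sox10, Jag1, Prox1, Hey1, Fgfr3, S100b, Cdkn1b and Notch1, and a higher call for S100a1 alone (log2 1.18). With GSK-343, S100a1 and Hes5 were called higher, and Sox10, Jag1, Prox1 and Cdkn1b lower. Markers of other cell types were also present. The 16 hair cell markers summed to 2430 and 585 TPM under TSA, 431 to 946 TPM under GSK-343, and 132 and 93.9 TPM under DMSO, with 15 or 16 of them detected in each library. The 12 neuronal markers summed to 636 and 481 TPM under TSA, 53.9 to 159 TPM under GSK-343, and 63.6 and 38.5 TPM under DMSO, with 10 to 12 detected and Scg2 at 0 in all treated libraries. The 10 mesenchymal markers summed to 269 and 93.2 TPM under TSA, 97.1 to 231 TPM under GSK-343, and 85.9 and 113 TPM under DMSO. The 6 melanocyte, 6 vascular and 6 immune markers each summed to at most 39.9 TPM in any library. In bulk samples, fewer cells of a type and less RNA per cell cannot be told apart.

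Of the 62 members, 59 and 57 were detected with TSA, 40, 50 and 46 under GSK-343, and 53 and 54 under DMSO. Summed over the members, the level was 872 and 418 TPM under TSA, 305, 386 and 444 TPM under GSK-343, and 356 and 337 TPM under DMSO. By TPM, TSA library 1 was the highest, and TSA library 2 lay within the range of the GSK-343 libraries. The order differed in CPM, the scaled read counts used below for single genes, which are not divided by length. There the sum was 1160 and 784 under TSA, 617, 765 and 891 under GSK-343, and 1410 and 1520 under DMSO. On that scale both DMSO libraries were the highest. Averaged over the groups, Kcnj10, Kcnk1, Kcnj16, Kcnh6 and Kcnh8 had the highest levels, with 45.5, 44.6, 40.1, 37.7 and 28.6 TPM. The leading gene differed by group: Kcnh8 (44.7 TPM) with TSA, Kcnk1 (64.2 TPM) with GSK-343, and Kcnj16 (69.1 TPM) with DMSO. The 5 highest members of each group held 31.5% of the summed level with TSA, 57.6% with GSK-343 and 59.0% under DMSO.

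**Figure D1:**
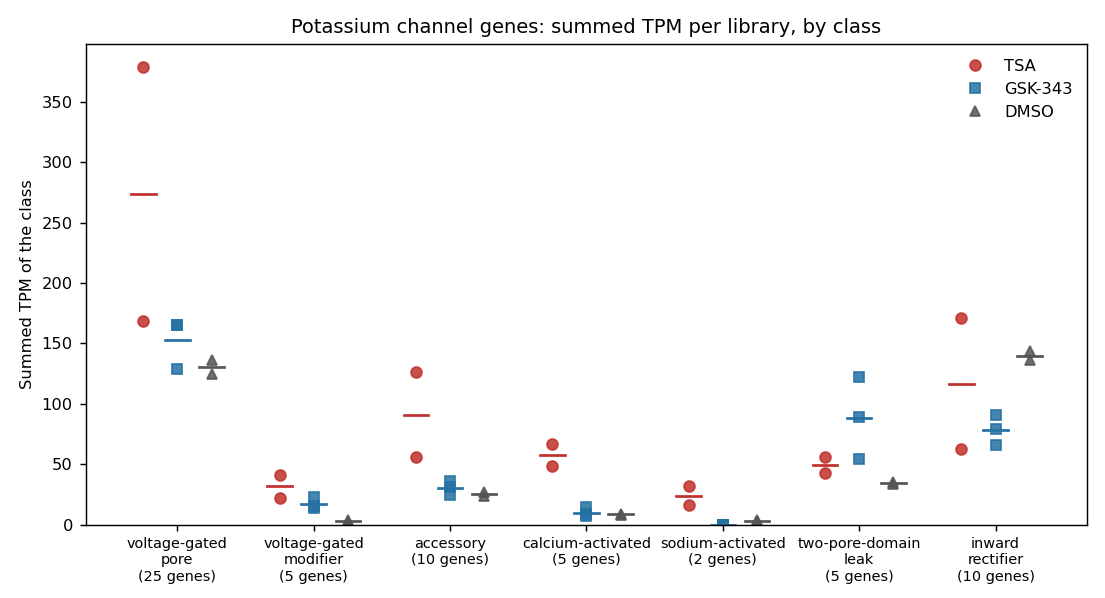
Summed TPM (vertical axis) of the members of each channel class in each library, with short bars at the group means (2 TSA, 3 GSK-343 and 2 DMSO libraries). Calcium-activated channels stood at 66.4 and 48.6 TPM in the TSA libraries, above the 6.83 to 14.9 TPM of the GSK-343 libraries and the 8.29 and 8.65 TPM of the DMSO libraries, while TSA library 1 exceeded library 2 in every class.

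Differences were tested with edgeR's quasi-likelihood test on all 7 libraries over 14907 genes, with p-values adjusted by the Benjamini-Hochberg method and a threshold of 0.05. Levels of single genes below are in CPM, read counts scaled to library size with TMM factors and not divided by length. Fold changes are log2 values ± SE. For a gene with 3 or fewer counts in a group, the ratio of the summed CPM with its 95% interval for counting error is given in place of the fitted value, and against a group without counts the ratio is a lower bound set at a floor of 3 counts per library. Of the 62 members, 50 passed the filter on low counts and were tested. The other 12 (Kcna5, Kcnd1, Kcne1, Kcng3, Kcnh1, Kcnip1, Kcnj12, Kcnk2, Kcnk5, Kcnma1, Kcnt2 and Kcnu1) were not. Counts in 2 libraries sufficed for the filter, so a member could pass through the group in which it was high. At least Kcnh3, Kcnc4, Kcna1, Kcng1, Kcnq1 and Kcnc1 passed through the TSA libraries alone, and at least Kcnj5, Kcnj9 and Kcnj15 through the DMSO libraries alone. Such members could hardly come out otherwise than higher in that group.

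Between TSA and GSK-343, 14 of the 50 tested members were higher and 2 lower with TSA, which is 32.0% of them. Over all 14907 genes, 10.7% were called in this comparison, 5.04% higher and 5.68% lower. The median log2 difference was 1.79 among the tested members and 0.00 among all genes tested. Members that passed the filter through the TSA libraries alone enter both the count of higher members and this median. The median of the members was 0.71 over the 19 members with at least 50 counts in 2 libraries, and 0.97, against 0.24 over all genes, with limma on log2(TPM + 1). Between TSA and DMSO, 11 members were higher and 9 lower, or 40.0%, against 29.2% of all genes (13.1% higher and 16.1% lower), with a median of 0.94 among the members and -0.05 among all genes. With at least 50 counts in 2 libraries the median of the members was 0.26. Scaled by total counts instead, which puts the median of all genes at 0.65 in this comparison, 17 members were higher and 5 lower. Between GSK-343 and DMSO, 4 members were higher and 14 lower, or 36.0%, which is near the 39.6% of all genes (18.1% higher and 21.5% lower), with a median of -0.84 among the members and -0.04 among all genes. With limma on log2(TPM + 1) and log2(TPM + 0.1) the members' medians were 0.07 and 0.04 (all genes 0.24 and 0.29), with 3 higher and 5 lower, and 4 higher and 7 lower. The counts with TSA rested on few libraries. Between TSA and GSK-343, 2 members were called without TSA library 2, 4 without TSA library 1, 6 without GSK-343 library 3 and 9 without GSK-343 library 2 (0.905%, 6.12%, 5.67% and 6.65% of all genes in the same fits), and the 4 are 7.14% of the members tested without TSA library 1, near the share of all genes. Between TSA and DMSO 7 members were called without any 1 of the TSA or DMSO libraries. That is 12.5% of the tested members without TSA library 1 or 2, 11.9% without DMSO library 1 and 12.3% without DMSO library 2, against 14.5%, 11.1%, 14.4% and 17.7% of all genes without TSA library 1, TSA library 2, DMSO library 1 and DMSO library 2. In these fits the members' share was thus near or below that of all genes. Comparisons that share a group share its libraries. No call was made in any comparison for 17 tested members, which include Kcnk1, Kcnh6, Kcnn2, Kcna10 and Kcnmb4.

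Inward rectifiers gave 6 of the 9 falls with TSA and 6 of the 14 falls with GSK-343 against DMSO. These channels pass potassium into the cell more readily than out, and Kcnj10 and Kcnj16 form mixed channels in glia and epithelia. Of 9 tested genes of the class, 6 were lower with TSA and 6 were lower with GSK-343 than with DMSO, and none was higher in either comparison. Either count is 66.7% of the class, against 16.1% of all genes called lower with TSA and 21.5% with GSK-343. The falls include Kcnj5, Kcnj9 and Kcnj15, which passed the filter on low counts through the DMSO libraries alone. None of the class differed between the 2 compounds (1 higher and 1 lower without GSK-343 library 1). Leaving out a library gave 1 fall with TSA without either TSA library, 2 without either DMSO library and 6 without any 1 of the GSK-343 libraries, and 5 or 6 falls with GSK-343 in each case. The summed level of the class by CPM was 211 and 125 under TSA, 145, 206 and 239 under GSK-343, and 521 and 537 under DMSO. The treated libraries did not reach the DMSO libraries on that scale, whereas by TPM the class summed to 171 and 62.3 under TSA, 66.3 to 90.5 under GSK-343, and 144 and 136 under DMSO. The 10 glial markers summed to 187 and 105 TPM under TSA, 265 to 518 TPM under GSK-343, and 502 and 471 TPM under DMSO. Between 7 and 9 of them were detected per library, with Egfl8 (TSA), Gfap (GSK-343) or Foxd3 (DMSO) at 0. Most of the DMSO sum was Fabp7 alone, with 447 and 419 TPM. The list was split: Erbb3 had 105 to 205 TPM under GSK-343 against 22.2 and 17.8 TPM under DMSO. Mbp was also higher in every treated library than in both DMSO libraries. The part of glial RNA in the falls of this class was not tested.

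Kcnj16 had 73.4 and 17.9 CPM under TSA, 35.7, 33.3 and 39.3 CPM under GSK-343, and 203 and 265 CPM under DMSO. All treated libraries lay below both DMSO libraries, with log2 differences of -2.36 ± 0.52 for TSA (adjusted p = 0.0044) and -2.69 ± 0.45 for GSK-343 (adjusted p = 0.000454). Both calls were lost with limma on log2(TPM + 1) and log2(TPM + 0.1). The adjusted p of Kcnj16 was then 0.128 and 0.145 for TSA, and 0.0549 and 0.0641 for GSK-343. Kcnj2, a strong inward rectifier that holds the resting potential of muscle and many other cells, had 4.48 and 5.87 CPM under TSA, 1.70, 0.487 and 1.16 CPM under GSK-343, and 25.6 and 41.4 CPM under DMSO. The 3 groups did not overlap. Kcnj2 differed from DMSO by -2.69 ± 0.72 with TSA (adjusted p = 0.0127) and by -4.89 ± 0.70 with GSK-343 (adjusted p = 0.000134), while the difference between TSA and GSK-343, 2.20 ± 0.70, missed the threshold (adjusted p = 0.0564). With the same 2 limma tests the adjusted p of Kcnj2 for TSA against DMSO was 0.0539 and 0.201. It was 0.0538 in edgeR with a fitted dependence on base composition and transcript length taken out. The TSA call of Kcnj2 was lost without DMSO library 2 (adjusted p = 0.0853), without TSA library 1 (0.109) and without TSA library 2 (0.083).

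Kcnj15, another inward rectifier of epithelia, had 1.96 and 0.293 CPM under TSA, 0.283, 0.487 and 0.231 CPM under GSK-343, and 15.3 and 9.38 CPM under DMSO. It was lower by log2 -3.41 ± 1.11 with TSA (adjusted p = 0.031) and by -5.08 ± 1.05 with GSK-343 (adjusted p = 0.00183). Kcnj5 and Kcnj9 encode pores that are opened by G proteins. Kcnj5 had no count in any treated library and 11.2 and 4.17 CPM in the DMSO libraries, so it was at least 8.95-fold lower with TSA (adjusted p = 0.0122) and at least 10.2-fold lower with GSK-343 (adjusted p = 0.00274). Kcnj9 had 0.280 and 0.587 CPM under TSA, 0, 0.487 and 0 CPM under GSK-343, and 10.3 and 11.7 CPM under DMSO. Its ratio to DMSO was 0.0391 with TSA (interval 0.00793 to 0.118, adjusted p = 0.0182) and 0.0152 with GSK-343 (interval 0.00182 to 0.0566, adjusted p = 0.00196). The GSK-343 calls of Kcnj15, Kcnj5 and Kcnj9 held without each library in turn. With TSA the call of Kcnj5 was lost without DMSO library 1 (adjusted p = 0.106), TSA library 1 (0.0957) or TSA library 2 (0.111). That of Kcnj9 was lost without DMSO library 1 (0.0695), DMSO library 2 (0.075), TSA library 1 (0.159) or TSA library 2 (0.122), and that of Kcnj15 without the same 4 libraries (0.165, 0.0574, 0.0702 and 0.282).

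Kcnj10, the main potassium-buffering rectifier of glia and of cochlear supporting cells and needed for the endocochlear potential, had 97.7 and 94.4 CPM under TSA, 102, 167 and 186 CPM under GSK-343, and 235 and 191 CPM under DMSO. The groups did not overlap. It was lower with TSA than with DMSO by log2 -1.15 ± 0.37 (adjusted p = 0.0286) and did not pass the threshold with GSK-343 (-0.49 ± 0.33, adjusted p = 0.246). Per length the TSA difference was not seen: Kcnj10 had 47.0 and 37.9 TPM under TSA and 49.5 and 35.9 TPM under DMSO, and a limma test on log2(TPM + 1) gave 0.00 (adjusted p = 0.999). Its call was also lost without any 1 of the TSA or DMSO libraries (0.158 without DMSO library 1, 0.068 without DMSO library 2, 0.123 without TSA library 1, and 0.156 without TSA library 2). Kcnj8, the pore of a vascular ATP-sensitive channel, was named after its values were seen, because it completes the 6 falls with GSK-343. It had 0.567, 0 and 0.462 CPM under GSK-343, against 9.43 and 2.09 CPM under DMSO, and differed by -3.97 ± 1.39 (adjusted p = 0.0334, but 0.363 without DMSO library 1, 0.0784 without GSK-343 library 2 and 0.0582 without GSK-343 library 3).

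**Figure D2:**
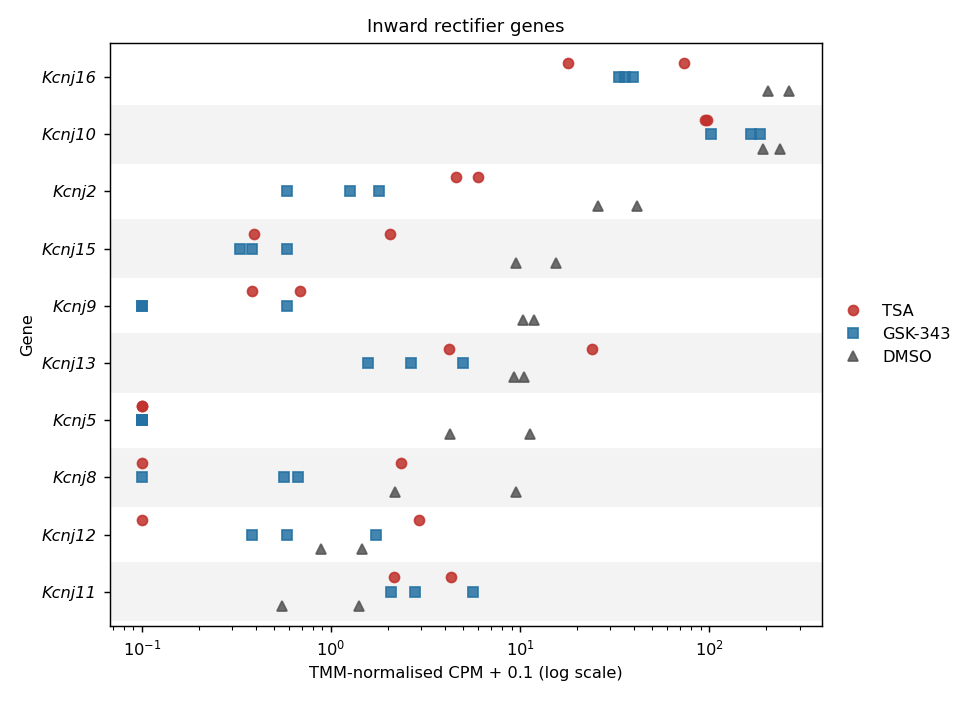
TMM-normalised CPM + 0.1 on a log axis for the 10 inward rectifier members, 1 point per library (2 TSA, 3 GSK-343 and 2 DMSO), in falling order of the DMSO mean. The treated points of Kcnj16, Kcnj2, Kcnj15, Kcnj9 and Kcnj5 lie below both DMSO points, whereas for Kcnj11 the DMSO points, 0.449 and 1.30 CPM, are the lowest.

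Kcnj16 and Kcnj2 are neighbours on mouse chromosome 11, transcribed in the same direction with 38.2 kb between the gene bodies, and both were lower with either compound than with DMSO. Kcnj9 and Kcnj10 are neighbours on chromosome 1, 11.9 kb apart, and both were called lower with TSA than with DMSO on counts. The Kcnj10 difference was not seen per length, and Kcnj9 passed the filter on low counts through the DMSO libraries alone. The promoter windows of the chromosome 11 pair are shown because both genes were lower with either compound while their windows differ in base composition. They run from 250 bases before to 50 bases after the start in RefSeq's annotation of build GRCm38.p6, on the plus strand, and capitals mark the GC box motif GGGCGG, searched on both strands.
Kcnj16 chr11:110967783-110968082: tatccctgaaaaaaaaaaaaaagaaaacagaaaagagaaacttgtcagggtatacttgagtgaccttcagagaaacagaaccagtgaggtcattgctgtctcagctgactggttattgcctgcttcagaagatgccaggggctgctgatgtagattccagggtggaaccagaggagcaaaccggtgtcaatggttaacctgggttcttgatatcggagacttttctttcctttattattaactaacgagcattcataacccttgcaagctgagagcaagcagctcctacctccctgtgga
Kcnj2 chr11:111065914-111066213: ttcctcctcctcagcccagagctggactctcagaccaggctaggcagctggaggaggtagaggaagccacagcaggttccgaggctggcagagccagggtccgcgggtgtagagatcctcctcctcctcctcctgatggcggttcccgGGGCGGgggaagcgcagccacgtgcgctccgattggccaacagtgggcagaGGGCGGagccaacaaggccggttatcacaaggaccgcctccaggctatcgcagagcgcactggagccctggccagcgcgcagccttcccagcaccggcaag
The Kcnj16 window held 3 CpG dinucleotides at a GC content of 44.3% and no GGGCGG, while the Kcnj2 window held 18 CpG at 66.7% with 2 copies. RefSeq windows were matched for 43 of the 62 members. GGGCGG was found in 20 of them (46.5%), against 48.4% of 16430 protein-coding genes. CAGCTG was found in 11 (25.6%, against 15.3%) and TATAAA in 3 (6.98%, against 12.8%), both also searched on both strands. None of the 3 motifs contains another. The median window held 11 CpG among the members and 14 among all genes.

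Leak channels of the two-pore-domain class keep a steady outward current, and 2 of the 3 tested ones are named by rule. Kcnk1 had 38.4 and 34.6 CPM under TSA, 45.9, 79.1 and 91.3 CPM under GSK-343, and 49.2 and 59.7 CPM under DMSO. It was the member with the second highest mean TPM and passed no test (adjusted p = 0.116 for TSA against GSK-343, 0.32 and 0.42 for TSA and GSK-343 each set against DMSO). Kcnk3, which encodes an acid-sensitive leak channel, had 4.76 and 2.05 CPM under TSA, 8.5, 34.6 and 96.7 CPM under GSK-343, and 21.1 and 21.6 CPM under DMSO. The TSA libraries were the lowest of all, and the GSK-343 libraries lay on both sides of DMSO. Kcnk3 was lower with TSA than with GSK-343 by -3.76 ± 0.89 (adjusted p = 0.0207) and than with DMSO by -2.63 ± 0.90 (adjusted p = 0.0421). Without TSA library 2 these adjusted p-values were 0.291 and 0.308, and without TSA library 1 they were 0.0975 and 0.144. The call against GSK-343 was also lost without GSK-343 library 3 (0.0599), DMSO library 1 (0.0502) or DMSO library 2 (0.054), and that against DMSO without DMSO library 1 (0.135) or DMSO library 2 (0.138). Kcnk6, named after its values were seen, had 0, 0 and 0.462 CPM under GSK-343, against 0.898 and 8.08 CPM under DMSO, a ratio of 0.0396 (interval 0.00461 to 0.154, adjusted p = 0.0242). That call was lost without DMSO library 2 (0.428), GSK-343 library 1 (0.056), GSK-343 library 2 (0.0601) or TSA library 1 (0.0608). Kcnk2, a mechanosensitive leak channel, was too low to be tested, with 1.68 and 3.52 CPM under TSA, 0.283, 0.243 and 1.39 CPM under GSK-343, and 0.449 and 0 CPM under DMSO.

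Of the 4 tested channels opened by intracellular calcium or sodium, 3 were higher under TSA than under GSK-343 (none without TSA library 2, and 2 without TSA library 1 or GSK-343 library 1 or 2). In the fit of all 7 libraries, 5.04% of all genes were called in that direction. Outside the TSA group, Kcnt1 had counts in DMSO library 1 alone. It thus needed a TSA library to pass the filter on low counts. Kcnn3, a small-conductance calcium-activated channel, had 12 and 39.6 CPM under TSA, 0, 0.243 and 0.462 CPM under GSK-343, and 0 and 3.91 CPM under DMSO. Both TSA libraries stood above all others. The ratio of TSA to GSK-343 was 102 (interval 34.2 to 498, adjusted p = 0.0082), and Kcnn3 was higher with TSA than with DMSO by log2 3.73 ± 1.23 (adjusted p = 0.0332). Without TSA library 2, the adjusted p was 0.131 against GSK-343 and 0.346 against DMSO, and without DMSO library 1 it was 0.0929 against DMSO. Kcnt1, a sodium-activated channel of neurons, had 30.8 and 20.5 CPM under TSA, no count in the GSK-343 libraries, and 8.76 and 0 CPM under DMSO. It was at least 33.9-fold higher with TSA than with GSK-343 (adjusted p = 0.0134, and 0.0926 without TSA library 2). Kcnt1 was also called lower with GSK-343 than with DMSO (at least 5.78-fold, adjusted p = 0.0162), but all its DMSO counts came from DMSO library 1, and the adjusted p without that library was 1.0. The Kcnt1 difference between TSA and DMSO did not pass (log2 2.53 ± 1.28, adjusted p = 0.168), but without DMSO library 1 it did (adjusted p = 0.00675), with no DMSO count left.

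Kcnn1, a further small-conductance channel, had 7.56 and 16.1 CPM under TSA, 0.85, 0.487 and 2.31 CPM under GSK-343, and 0.898 and 4.17 CPM under DMSO. It was higher with TSA than with GSK-343 by 3.24 ± 0.97 (adjusted p = 0.0451). That call was lost without TSA library 1 (0.0804), TSA library 2 (0.498), or GSK-343 library 1, 2 or 3 (0.0758, 0.116 and 0.0512). Kcnn2, which mediates the inhibitory efferent response of hair cells, had 38.9 and 19.9 CPM under TSA, 3.40, 5.84 and 14.1 CPM under GSK-343, and 13.3 and 13.0 CPM under DMSO. The TSA libraries lay above all others, yet the difference from GSK-343, 1.91 ± 0.62, did not pass (adjusted p = 0.0592), nor did that from DMSO (1.16 ± 0.69, adjusted p = 0.218). Kcnma1, the large-conductance BK channel of maturing hair cells, was too low to be tested: 3.08 and 0.880 CPM under TSA, 0, 0.243 and 0 CPM under GSK-343, and 1.80 and 2.35 CPM under DMSO.

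Among the voltage-gated pore genes, 10 of 22 tested were higher and 1 was lower with TSA than with GSK-343. Between TSA and DMSO 5 were higher and 2 lower, and between GSK-343 and DMSO 2 were higher and 5 lower. Either count is 31.8% of the class, near the 29.2% of all genes called between TSA and DMSO and below the 39.6% between GSK-343 and DMSO. The 10 became 1 without TSA library 1, 2 without TSA library 2, 3 without GSK-343 library 3 and 4 without GSK-343 library 2, and the 5 higher than DMSO became 2 without any 1 of the TSA or DMSO libraries. The 5 lower under GSK-343 became 3 without DMSO library 1 or GSK-343 library 3, and the 2 higher became 1 without DMSO library 2. In the neuronal marker list the summed TPM was highest in the 2 TSA libraries (636 and 481). Both TSA libraries stood above all others for Stmn2, Snap25, Nefl, Map2, Elavl3, Elavl4 and Gap43. They did not for Tubb3, Nefm, Syt1, Rbfox3 and Scg2. The part of neuronal RNA in the results for these channels was not tested.

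Kcnq3, a subunit of the M-current channels of neurons, gave the difference with the smallest p between the compounds. It had 33.3 and 30.8 CPM under TSA, 2.83, 9.01 and 4.39 CPM under GSK-343, and 78.4 and 97.5 CPM under DMSO. The 3 groups did not overlap, with TSA in the middle. Kcnq3 was higher with TSA than with GSK-343 by 2.55 ± 0.47 (adjusted p = 0.00567), a call that held without each library in turn. It was lower with GSK-343 than with DMSO by -4.01 ± 0.48 (adjusted p = 3.09e-05), which also held without each library, and lower with TSA than with DMSO by -1.45 ± 0.49 (adjusted p = 0.0379). That last call was lost without DMSO library 1 (0.0839), DMSO library 2 (0.151), TSA library 1 (0.141) or TSA library 2 (0.193), and when a fitted dependence on base composition and transcript length was taken out (0.384). The transcript of Kcnq3 averaged 10638 bases.

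Kcnq1, the pore of the channel through which the stria secretes potassium into endolymph, had 3.08 and 5.57 CPM under TSA, 0, 0.243 and 0.231 CPM under GSK-343, and 1.80 and 1.56 CPM under DMSO. Its ratio of TSA to GSK-343 was 25.7 (interval 6.52 to 222, adjusted p = 0.0339). Without each of the 7 libraries in turn this adjusted p was 0.0607 and 0.0589 (DMSO libraries 1 and 2), 0.0533, 0.0671 and 0.0755 (GSK-343 libraries 1, 2 and 3), and 0.165 and 0.496 (TSA libraries 1 and 2). Kcnq1 shares 2.96% of its exonic bases with the antisense gene Kcnq1ot1, which had 223 and 249 CPM under TSA, 155, 134 and 42.5 CPM under GSK-343, and 366 and 392 CPM under DMSO. Since the use of strand in counting is not given in the sources used here, reads of the 2 genes cannot be told apart where they overlap. Its partner Kcne1 had counts only in DMSO library 2 (6 CPM). The 7 markers of the marginal cells of the stria, where Kcnq1 and Kcne1 work together, summed to 176 and 87.4 TPM under TSA, 147 to 322 TPM under GSK-343, and 67.4 and 89.4 TPM under DMSO, with Bsnd at 0 under TSA and DMSO and with Esrrb and Bsnd at 0 under GSK-343, and their part was not tested.

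Kcna6, a Shaker-type channel, had 27.4 and 33.4 CPM under TSA, 9.35, 1.70 and 3.47 CPM under GSK-343, and 0 and 0.261 CPM under DMSO. The 3 groups did not overlap, and Kcna6 was the member called higher in each of the 3 comparisons. It was higher with TSA than with GSK-343 by 2.66 ± 0.74 (adjusted p = 0.0335), and its ratio to DMSO was 252 with TSA (interval 44.7 to 9990, adjusted p = 0.000595) and 38.1 with GSK-343 (interval 6.56 to 1530, adjusted p = 0.0045). Both calls against DMSO held without each library. That between the compounds was lost without GSK-343 library 2 (0.0895), GSK-343 library 3 (0.0873), TSA library 1 (0.091) or TSA library 2 (0.28). Of its exonic bases, 39.6% overlap an antisense gene, Gm26673, that had no count in any library. Kcna1, a low-threshold channel of axons, had 4.76 and 4.40 CPM under TSA, 0.567, 0 and 0.231 CPM under GSK-343, and no count under DMSO. It was at least 6.29-fold higher with TSA than with DMSO (adjusted p = 0.016), a call lost without DMSO library 1 (0.101), DMSO library 2 (0.0896), TSA library 1 (0.171) or TSA library 2 (0.173). Kcna1 and Kcna6 lie 61.9 kb apart on chromosome 6.

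Kcna2, an axonal relative of Kcna1, had 45.1 and 48.7 CPM under TSA, 37.7, 33.1 and 23.6 CPM under GSK-343, and 91.9 and 93.3 CPM under DMSO. It was lower with GSK-343 than with DMSO by -1.56 ± 0.35 (adjusted p = 0.00326), but its mean transcript length was 10778 bases, and without the fitted dependence on base composition and length the difference was 0.01 (adjusted p = 0.977). Kcna10, a channel of hair cells in the mouse inner ear, had 33.0 and 4.99 CPM under TSA, 0.567, 0.730 and 10.2 CPM under GSK-343, and 0 and 8.08 CPM under DMSO. It varied within every group and passed no test (adjusted p = 0.334, 0.337 and 0.984 for TSA against GSK-343, TSA against DMSO, and then GSK-343 against DMSO).

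The promoter windows of Kcna6 and Kcnn3 are shown because both genes stood highest in the 2 TSA libraries. They follow the same RefSeq annotation, Kcna6 on the minus strand and Kcnn3 on the plus strand, and neither holds GGGCGG.
Kcna6 chr6:126740625-126740924: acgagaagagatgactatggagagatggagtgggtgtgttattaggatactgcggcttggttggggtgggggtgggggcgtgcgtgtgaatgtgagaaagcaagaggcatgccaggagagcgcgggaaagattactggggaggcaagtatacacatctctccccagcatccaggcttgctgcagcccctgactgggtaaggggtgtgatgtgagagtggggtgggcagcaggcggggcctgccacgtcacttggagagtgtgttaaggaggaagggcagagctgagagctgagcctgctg
Kcnn3 chr3:89519914-89520213: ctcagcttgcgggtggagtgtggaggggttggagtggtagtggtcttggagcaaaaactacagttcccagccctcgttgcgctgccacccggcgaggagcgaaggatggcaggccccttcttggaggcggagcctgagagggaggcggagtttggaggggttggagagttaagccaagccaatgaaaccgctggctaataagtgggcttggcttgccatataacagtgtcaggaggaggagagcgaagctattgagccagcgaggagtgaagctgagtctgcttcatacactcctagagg
The Kcna6 window held 8 CpG at a GC content of 58.3%, and the Kcnn3 window held 11 CpG at 57.7%.

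Kcnb2, the pore of a delayed rectifier, had 54.3 and 56.9 CPM under TSA, 108, 111 and 113 CPM under GSK-343, and 322 and 359 CPM under DMSO. The replicates lay close together and the groups did not overlap. Kcnb2 was lower with TSA than with DMSO by -2.61 ± 0.34 (adjusted p = 0.000118), a call that held without each library in turn, and lower with GSK-343 than with DMSO by -1.62 ± 0.29 (adjusted p = 0.00063). The Kcnb2 transcript averaged 10024 bases, and without the fitted dependence on base composition and length the GSK-343 difference was 0.63 (adjusted p = 0.0975). Against GSK-343 it was lower with TSA by -0.99 ± 0.30 (adjusted p = 0.0474), which was lost without DMSO library 1 (0.0759), DMSO library 2 (0.0758), GSK-343 library 2 (0.0962), GSK-343 library 3 (0.118), TSA library 1 (0.201) or TSA library 2 (0.281).

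The Shaw-type channels let neurons fire at high rates. Kcnc4 had 4.76 and 4.40 CPM under TSA, 0, 0.243 and 0 CPM under GSK-343, and 0.449 and 0 CPM under DMSO, a ratio of TSA to GSK-343 of 54.8 (interval 9.16 to 2230, adjusted p = 0.0313). Kcnc2 had 4.48 and 2.35 CPM under TSA, 0.283, 0 and 0 CPM under GSK-343, and 3.59 and 0.521 CPM under DMSO. Its ratio of TSA to GSK-343 was 41.1 (interval 6.71 to 1690, adjusted p = 0.0469) and of GSK-343 to DMSO 0.0385 (interval 0.000924 to 0.244, adjusted p = 0.0372). These calls rested on few libraries. Without TSA library 1, the adjusted p of TSA against GSK-343 was 0.272 for Kcnc4 and 0.349 for Kcnc2, and without TSA library 2 it was 0.383 for Kcnc4 and 0.292 for Kcnc2. For Kcnc4 it was 0.0509 without GSK-343 library 1 and 0.0851 without GSK-343 library 3. For Kcnc2 it was 0.112 without GSK-343 library 2, 0.0795 without DMSO library 1 and 0.0612 without DMSO library 2. For GSK-343 against DMSO, the Kcnc2 call was lost without DMSO library 1 (0.455), GSK-343 library 2 (0.0922), TSA library 1 (0.142) or TSA library 2 (0.105).

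In the ether-a-go-go group, Kcnh7, an Erg-type channel, had 77.3 and 28.2 CPM under TSA, 14.4, 2.92 and 10.4 CPM under GSK-343, and 6.29 and 22.4 CPM under DMSO. Both TSA libraries lay above the rest. Kcnh7 was higher with TSA than with GSK-343 by 2.51 ± 0.68 (adjusted p = 0.0322), which was lost without TSA library 1 (0.288), GSK-343 library 2 (0.0671) or GSK-343 library 3 (0.0643), and without the fitted dependence on base composition and length (0.159). Kcnh3, an Elk-type channel of the forebrain, had 4.48 and 4.69 CPM under TSA, no count under GSK-343, and 0 and 0.261 CPM under DMSO. It was at least 6.05-fold higher with TSA than with GSK-343 (adjusted p = 0.0207, but 0.17 without TSA library 1 and 0.294 without TSA library 2), and its ratio to DMSO was 38.0 (interval 6.35 to 1550, adjusted p = 0.0392). Against DMSO that call was lost without DMSO library 1 (0.225), DMSO library 2 (0.101), TSA library 1 (0.297) or TSA library 2 (0.326).

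Kcnh8, also of the Elk type and among the 5 highest members, had 97.7 and 57.5 CPM under TSA, 74.2, 69.4 and 65.4 CPM under GSK-343, and 37.5 and 23.7 CPM under DMSO. All treated libraries lay above both DMSO libraries. Kcnh8 was higher by 1.34 ± 0.42 with TSA (adjusted p = 0.0257) and by 1.18 ± 0.39 with GSK-343 (adjusted p = 0.0251), calls that were lost without DMSO library 2 (0.154 with TSA and 0.169 with GSK-343) and, with TSA, without TSA library 1 (0.218). Kcnh6, an Erg-type channel, had 72.5 and 15.5 CPM under TSA, 51.6, 103 and 68.2 CPM under GSK-343, and 112 and 115 CPM under DMSO. TSA library 1 lay within the GSK-343 range and library 2 below it, and no Kcnh6 test passed (adjusted p = 0.37, 0.0842 and 0.354 for TSA against GSK-343, TSA against DMSO, and then GSK-343 against DMSO).

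**Figure D3:**
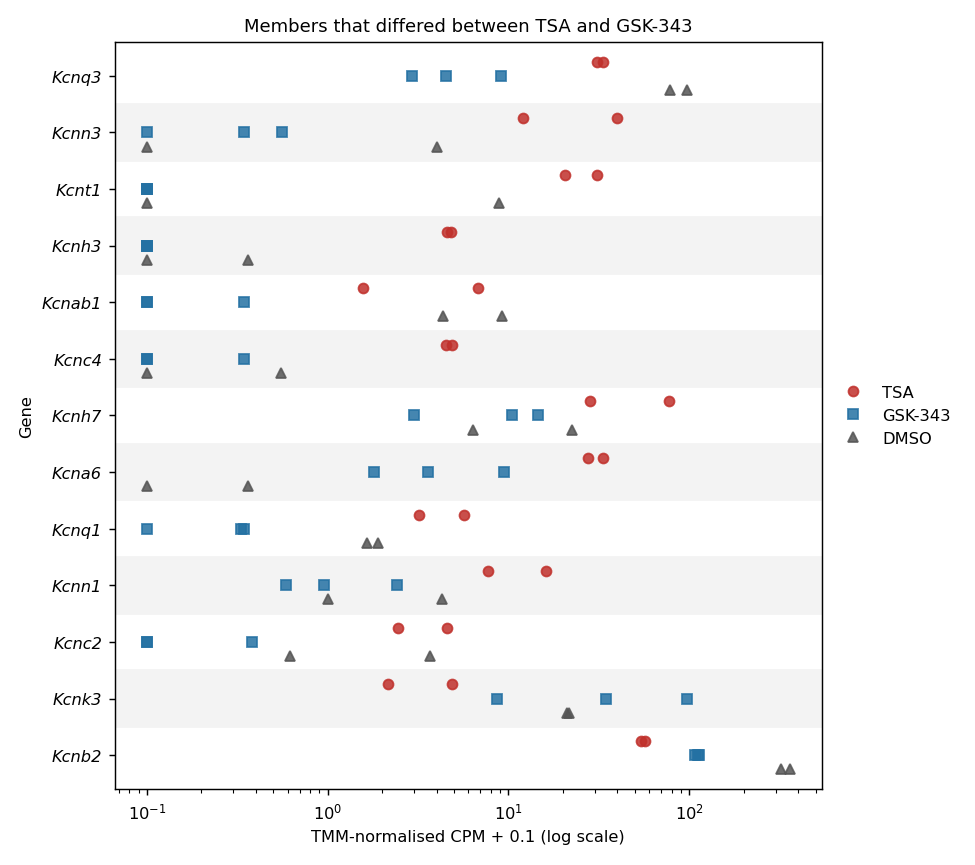
TMM-normalised CPM + 0.1 on a log axis for 13 of the 16 members that differed between TSA and GSK-343, 1 point per library, with the 11 genes higher with TSA above Kcnk3 and Kcnb2, which were lower. The GSK-343 points of Kcnt1 and Kcnh3 all sit at a count of 0, and for Kcnq3 the TSA points (33.3 and 30.8 CPM) lie between GSK-343 and DMSO.

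Of the silent modifier subunits, which assemble with other pore subunits and change their gating, Kcns3 rose with both compounds. It had 33.3 and 15.5 CPM under TSA, 27.5, 17.8 and 20.6 CPM under GSK-343, and 3.14 and 1.04 CPM under DMSO. All treated libraries lay above both DMSO libraries. Kcns3 was higher by 3.51 ± 0.71 with TSA (adjusted p = 0.00279) and by 3.35 ± 0.69 with GSK-343 (adjusted p = 0.00169), and both calls held without each library in turn. Kcng1 had 5.32 and 6.75 CPM under TSA, 0, 1.95 and 1.85 CPM under GSK-343, and 0.225 and 0 CPM under DMSO. Its ratio of TSA to DMSO was 49.9 (interval 8.48 to 2020, adjusted p = 0.0274), a call lost without DMSO library 1 (0.0797), DMSO library 2 (0.129), TSA library 1 (0.119) or TSA library 2 (0.188). Over the 4 tested modifiers, 2 were higher and none lower with TSA than with DMSO, and none differed between TSA and GSK-343. The 2 are Kcns3 and Kcng1, and Kcng1 passed the filter on low counts through the TSA libraries alone. Over all genes, the share called higher against DMSO in the TSA libraries was 13.1%.

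Among 8 tested accessory subunits, 1 was higher with TSA than with GSK-343, 3 were higher with TSA than with DMSO, and 1 was higher and 1 lower with GSK-343 than with DMSO. These are 12.5%, 37.5% and 25.0% of the class, against 10.7%, 29.2% and 39.6% of all genes. The first 2 shares are near those of all genes and the third is below. Kcnab1, a cytoplasmic beta subunit of Shaker channels, had 6.72 and 1.47 CPM under TSA, 0, 0.243 and 0 CPM under GSK-343, and 4.27 and 9.12 CPM under DMSO. The GSK-343 libraries were the lowest. Its ratio of TSA to GSK-343 was 49.7 (interval 8.24 to 2030, adjusted p = 0.027), lost without TSA library 1 (0.267), TSA library 2 (0.0758) or GSK-343 library 3 (0.0767). The ratio of GSK-343 to DMSO for Kcnab1 was 0.0128 (interval 0.000319 to 0.0746, adjusted p = 0.00341), which held without each library. Kcnip3, a calcium-binding protein that modulates A-type channels and can repress transcription, had 15.4 and 4.69 CPM under TSA, 0.283, 1.95 and 4.16 CPM under GSK-343, and 0.225 and 0.521 CPM under DMSO. Its ratio of TSA to DMSO was 28.1 (interval 9.23 to 140.0, adjusted p = 0.0199), lost without DMSO library 1 (0.0955), DMSO library 2 (0.0604) or TSA library 1 (0.238). Kcnab2, a relative of Kcnab1 named after its values were seen, was also called higher with TSA than with DMSO (8.40 and 6.16 CPM under TSA, 0.449 and 1.04 CPM under DMSO, log2 3.25 ± 1.09, adjusted p = 0.0351), which was lost without DMSO library 1 (0.134), DMSO library 2 (0.0657), TSA library 1 (0.185) or TSA library 2 (0.129).

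Beta subunits of the BK channel were measured although its pore gene Kcnma1 was scarce. Kcnmb2, which inactivates BK channels, had 36.7 and 2.05 CPM under TSA, 13.0, 1.70 and 15 CPM under GSK-343, and 0.225 and 1.04 CPM under DMSO. All treated libraries lay above both DMSO libraries, by 4.90 ± 1.42 with TSA (adjusted p = 0.0206) and 3.94 ± 1.35 with GSK-343 (adjusted p = 0.033). The TSA call was lost without TSA library 1 (0.435), DMSO library 1 (0.162) or DMSO library 2 (0.0938), and the GSK-343 call without DMSO library 1 (0.218), DMSO library 2 (0.111), GSK-343 library 1 (0.068) or GSK-343 library 3 (0.0668). Kcnmb4, the neuronal beta subunit, had 8.68 and 10.9 CPM under TSA, 4.25, 9.49 and 7.63 CPM under GSK-343, and 6.51 and 13.8 CPM under DMSO. The groups overlapped, and the log2 differences were 0.45 ± 0.68 for TSA against GSK-343, while against DMSO they were -0.05 ± 0.75 (TSA) and -0.50 ± 0.68 (GSK-343) (adjusted p = 0.716, 0.967 and 0.583).

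**Figure D4:**
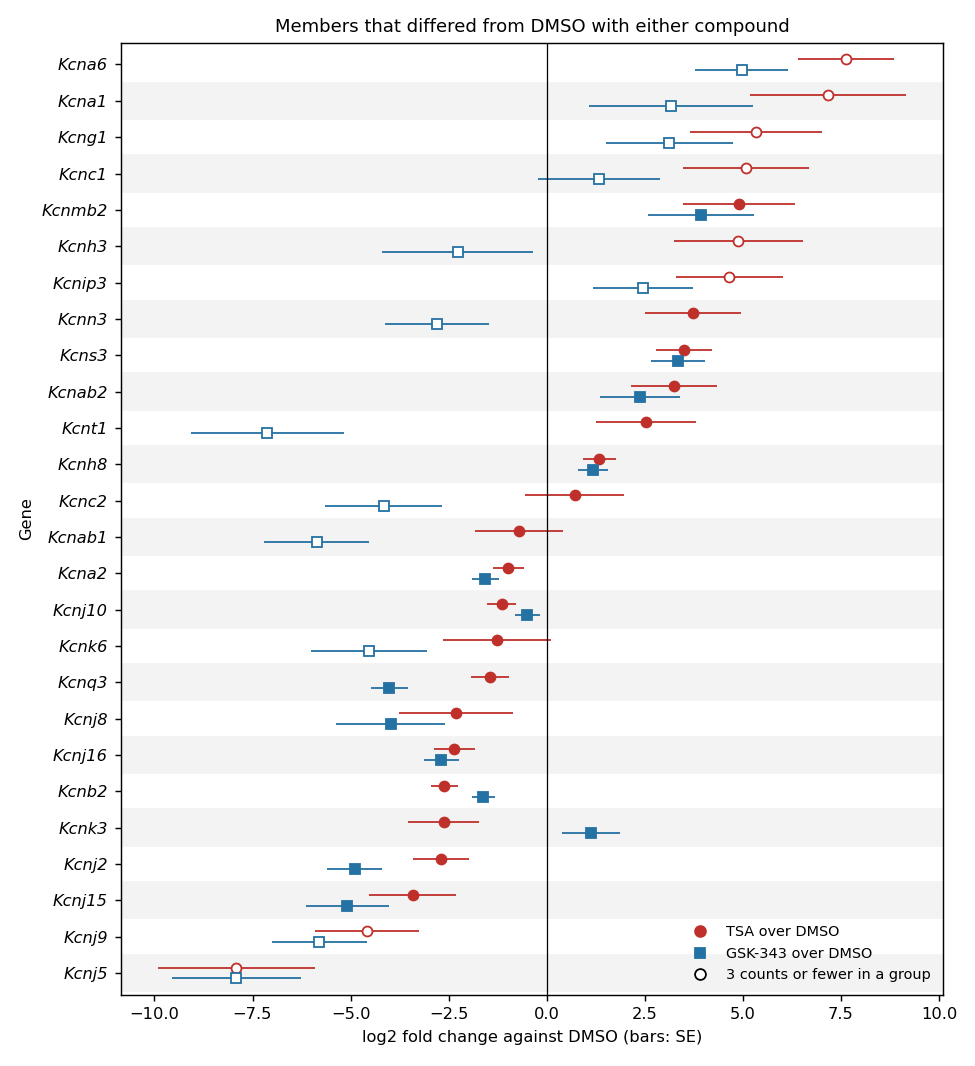
Log2 fold change over DMSO, with SE bars, for 26 of the 27 members that differed from DMSO with TSA or with GSK-343, TSA above GSK-343 in each row (open symbols: 3 counts or fewer in a group, where the fitted value is not a bound). Kcns3 and Kcnh8 lie right of 0 and Kcnj16, Kcnj2 and Kcnj15 lie left of 0 with both compounds, and both sets of values share the 2 DMSO libraries.

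The TSA libraries were unequal for some channels. Among 41 tested members with at least 20 counts over the TSA libraries, 6 were at least 4-fold higher in TSA library 1 than in library 2 (Kcnmb2, Kcna10, Kcnj13, Kcnh6, Kcnab1 and Kcnj16, with CPM ratios of 17.9, 6.63, 5.80, 4.67, 4.58 and 4.10), and 1 (Kcnc1) was at least 4-fold higher in library 2. The median ratio of library 1 to library 2 was 1.4. The 16 hair cell markers summed to 4.15 times as much TPM in TSA library 1 as in library 2, and none of them was at 0 in either. In the GSK-343 libraries that list summed to 709, 431 and 946 TPM, while Kcnmb2 stood at 11.9, 2.90 and 11.5 TPM and Kcna10 at 0.650, 0.760 and 37.9 TPM. The part of hair cell RNA in these values was not tested. Kcnj13, a channel of transporting epithelia that was named after its values were seen, had 23.8 and 4.11 CPM under TSA, 2.55, 1.46 and 4.86 CPM under GSK-343, and 9.21 and 10.4 CPM under DMSO. It shares 49.1% of its exonic bases with Gigyf2 on the other strand, so its counts cannot be told apart from that gene's there. Kcnc1, a Shaw-type channel named for the same reason, had 3.08 and 15 CPM under TSA, 0, 0.487 and 1.39 CPM under GSK-343, and 0.449 and 0 CPM under DMSO, with a ratio of TSA to DMSO of 36.8 (interval 9.77 to 311, adjusted p = 0.0278) that was no longer past the threshold without DMSO library 1 (0.0593), DMSO library 2 (0.118) or TSA library 2 (0.42).

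**Figure D5:**
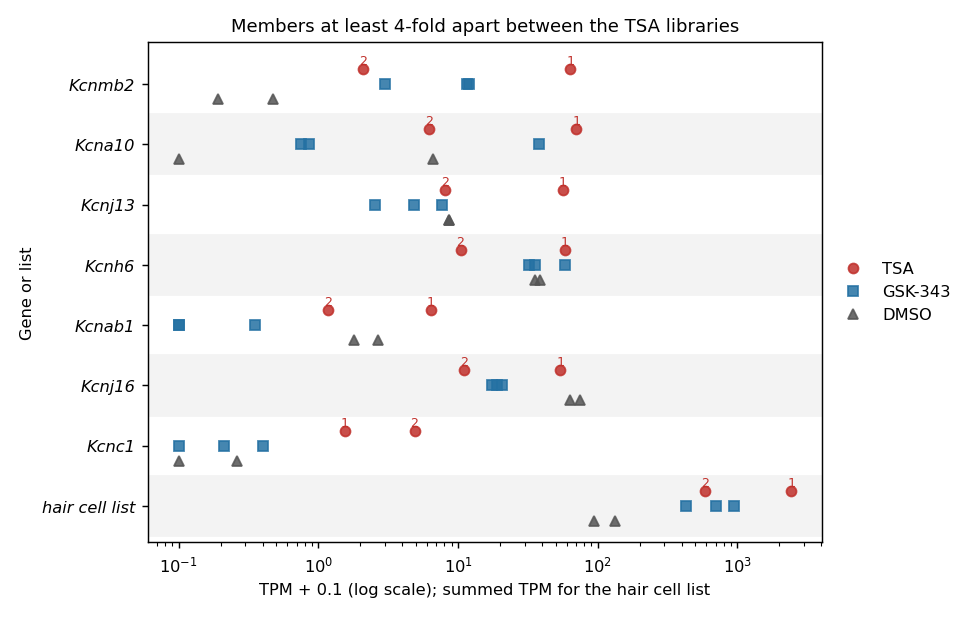
TPM + 0.1 on a log axis for the 7 members that were at least 4-fold apart between the TSA libraries by CPM, and the summed TPM of 16 hair cell markers in the lowest row (2 TSA libraries, numbered, 3 GSK-343 and 2 DMSO libraries). TSA library 1 lies right of library 2 for every member shown except Kcnc1, and for the hair cell list (2430 and 585 TPM).

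Genes that work with potassium channels were read from a list of 36 transporters, pumps, gap junction and regulatory genes, of which 28 were tested. With TSA 1 was higher and 3 were lower than with GSK-343, 4 were higher and 5 lower than with DMSO, and with GSK-343 3 were higher and 7 lower than with DMSO. These are 14.3%, 32.1% and 35.7% of the list, near the 10.7%, 29.2% and 39.6% of all genes. The median log2 differences were -0.17, -0.39 and -0.02. Atp1b2, a beta subunit of the sodium pump, had 35.0 and 34.6 CPM under TSA, 87.0, 251 and 241 CPM under GSK-343, and 480 and 468 CPM under DMSO. It was lower with TSA than with GSK-343 by -2.47 ± 0.43 (adjusted p = 0.00473) and than with DMSO by -3.77 ± 0.48 (adjusted p = 9.91e-05), and both calls held without each library in turn.

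Hcn4, a cation channel of pacemaker cells, had 0.840 and 0 CPM under TSA, 1.13, 1.95 and 0.462 CPM under GSK-343, and 52.1 and 35.2 CPM under DMSO. It was lower with GSK-343 than with DMSO by -5.18 ± 0.77 (adjusted p = 0.000174), and its adjusted p with TSA, where the libraries held 3 counts in all, was 0.000489. Aqp4, the water channel that accompanies Kcnj10 in glia and supporting cells, had 25.8 and 16.4 CPM under TSA, 14.7, 14.8 and 21.3 CPM under GSK-343, and 87.4 and 77.4 CPM under DMSO. It was lower by -1.96 ± 0.45 with TSA (adjusted p = 0.00565, and 0.0816 without TSA library 2) and by -2.28 ± 0.40 with GSK-343 (adjusted p = 0.00057). Gjb6, a connexin of the gap junctions between supporting cells, had 59.7 and 29.0 CPM under TSA, 246, 82.0 and 89.3 CPM under GSK-343, and 141 and 114 CPM under DMSO. Gjb6 was lower with TSA than with GSK-343 by -1.65 ± 0.50 (adjusted p = 0.0488), which was lost without DMSO library 1 (0.0703), DMSO library 2 (0.0698), GSK-343 library 1 (0.098) or TSA library 2 (0.387). Abcc8, the sulfonylurea receptor that regulates the ATP-sensitive pore Kcnj11, had 16.0 and 12.6 CPM under TSA, 0.283, 1.22 and 1.39 CPM under GSK-343, and 0 and 2.09 CPM under DMSO, and was higher with TSA than with GSK-343 by 3.83 ± 1.08 (adjusted p = 0.0351). That call was lost without GSK-343 library 1, 2 or 3 (0.0614, 0.0666 and 0.0673) or TSA library 1 or 2 (0.159 and 0.196). Ano1, a chloride channel, had 395 and 108 CPM under TSA, 1210.0, 521 and 776 CPM under GSK-343, and 292 and 319 CPM under DMSO. Ano1 was lower with TSA than with GSK-343 by -1.73 ± 0.50 (adjusted p = 0.042), a call lost without TSA library 2 (0.278), GSK-343 library 1 (0.0849), GSK-343 library 3 (0.0744), DMSO library 1 (0.0712) or DMSO library 2 (0.0702). Wnk1, a kinase that regulates potassium-chloride transport, had 255, 164 and 207 CPM under GSK-343, against 935 and 768 CPM under DMSO, and was lower by -2.03 ± 0.30 (adjusted p = 0.000163), also without each library. Kcnj11 itself had 4.20 and 2.05 CPM under TSA, 1.98, 2.68 and 5.55 CPM under GSK-343, and 0.449 and 1.30 CPM under DMSO, and passed no test (adjusted p = 0.966, 0.266 and 0.181 for TSA against GSK-343, TSA against DMSO, and then GSK-343 against DMSO).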

How the data were processed

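RNA of sorted supporting cells was sequenced in 7 libraries made with the QIAseq FX Single Cell RNA Library Kit, per the labels' protocols. Reads were aligned with STAR, quantified with RSEM on mm10 and compared with DESeq2, per the submitters' processing notes. The deposited tables hold RSEM expected counts per gene, not scaled between libraries, and TPM values, which the authors' software divides by effective length, per the file headers. Versions and the use of strand are not given in the sources used here. Of 48709 gene identifiers, 48349 matched GENCODE M21 without their version suffix.

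Rounded expected counts went into edgeR 4.0.16 (R 4.3.3). Genes passing filterByExpr were fitted in 1 model of all 7 libraries (TMM scaling, robust quasi-likelihood, 4 residual degrees of freedom, biological coefficient of variation 0.43), and the size of each log2 difference divided by the root of its F statistic served as SE. The 3 comparisons share groups. Replicates were checked for duplicate libraries, and the steps were tested on simulated data. Ratios of summed counts have exact 95% intervals, and these and the floors of 3 counts per library (0.674 to 0.880 CPM) cover counting error only.

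Alternatives were other scalings and filters, DESeq2 1.42.0, limma 3.58.1 on log2(TPM + 1) and log2(TPM + 0.1), thinning, protein-coding nuclear genes alone, removal of a spline on base composition and length, leaving out each library, a block for replicate number, a threshold of 0.01 and, added after the data were seen, a fit without the robust prior. Fits that leave a lone TSA or DMSO library assume that it varies like the other groups. The members, the marker and partner lists and the rules were chosen with earlier results of these data known. Named by rule were the 15 called members with the smallest adjusted p between TSA and GSK-343, 12 in each comparison with DMSO, the 5 with the highest TPM, 14 fixed genes and up to 4 partner genes per comparison. Promoter windows come from RefSeq on GRCm38.p6. Figures were drawn with matplotlib 3.10.9. Reads were not analysed here. Some genes that the rule names enter the counts and are not reported here by name.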

Additional observations from a re-analysis of the deposited data

How the results depend on the processing

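The number of members called between TSA and GSK-343 was 16. It was 9 with a filter of 50 counts in 2 libraries, 6 and 5 with limma on log2(TPM + 1) and log2(TPM + 0.1), 2 at a threshold of 0.01, and 2 (without TSA replicate 2) to 16 (without GSK-343 replicate 1) with a library left out. With single libraries left out there were 12 without either DMSO library, 4 without TSA replicate 1, 6 without GSK-343 replicate 3 and 9 without GSK-343 replicate 2. Between TSA and DMSO the 20 calls became 11 with the stricter filter, 4 at a threshold of 0.01, and 7 to 23 with a library left out (7 without either DMSO or either TSA library). Between GSK-343 and DMSO the 18 calls became 11 with the stricter filter, 8 and 11 with limma, 11 at a threshold of 0.01, and 14 to 18 with a library left out. Same-numbered libraries did not deviate together (correlations of -0.0936 to 0.0395), so the replicate number was not taken as a pairing. With it as a block, 7 members were called between TSA and GSK-343, 18 between TSA and DMSO and 14 between GSK-343 and DMSO.

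Scaling by total counts put the median of all genes at 0.20 between TSA and GSK-343, 0.65 between TSA and DMSO and 0.42 between GSK-343 and DMSO, and the calls became 16 higher and 1 lower, 17 higher and 5 lower, and 5 higher and 11 lower. The values that changed sign were Kcna2 (0.01) and Kcnb2 (0.63) for GSK-343 against DMSO without the fitted dependence on base composition and length, Kcnj10 (0.00) for TSA against DMSO with limma at both pseudocounts, and Kcnt1 (0.00) for GSK-343 against DMSO without DMSO replicate 1, where no count was left in either group (-8.08 without DMSO replicate 2). The cause of the others was not tested. Of 954 values for single genes under the alternatives, 737 kept their call and direction and 212 kept the direction alone. With these depths a gene at 0 in a library may lie anywhere below 3 counts, and 12 members could not be tested.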
